A study of Mus musculus with 6 samples.

Results

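Syndecans and glypicans are the main families of heparan sulphate proteoglycans held at the cell surface. The 8 genes described here are the syndecans Sdc1, Sdc2, Sdc3 and Sdc4 and the glypicans Gpc1, Gpc3, Gpc4 and Gpc6, out of 18197 gene symbols in the count table. They were chosen by family name and by being present in that table, that is on measured counts, and with earlier results of the genotype contrast known, so the values below describe these genes and nothing is drawn from their having been picked. Every symbol of the table reached at least 11 counts in 1 library, and all 8 members lay well inside that limit: the lowest maximum was 1024 counts, for Sdc3. Gpc2 and Gpc5 are not analysed here.

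The libraries were made from cancer-associated fibroblasts sorted from mammary tumours of C57BL/6 mice. In all of the mice the tumours were induced by the polyoma middle T oncogene (PyMT), and they were taken after 16 to 20 weeks. The 3 control libraries are labelled WT and the other 3 mPGES-1 KO, for loss of microsomal prostaglandin E synthase-1, an enzyme that makes prostaglandin E2 (PGE2). The sources used here give neither the promoter behind the oncogene, nor the kind of deletion, nor the surface markers of the sort. The labels do not say whether the libraries of a group came from separate animals. A p-value therefore sets the difference of the groups against the spread of these libraries and no more, and that spread may be technical. The comparison asks which syndecan and glypican transcripts differ between the genotypes in a series whose title concerns PGE2-dependent expression.

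Both families carry long heparan sulphate chains on a core protein, and through those chains they hold growth factors, chemokines and matrix proteins at the cell surface. Syndecans cross the membrane and have a short cytoplasmic tail that docks scaffold and signalling proteins, whereas glypicans are tied to the outer leaflet by a glycosylphosphatidylinositol (GPI) anchor. In mammary tissue Sdc1 is known both from epithelium and, in carcinomas, from stromal fibroblasts. Sdc4 is a widely expressed focal adhesion component, and Gpc3 is a modulator of Hedgehog and Wnt signalling.

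The coding ends of the 4 syndecans show what the family shares inside the cell and where its members part. Each line gives the last 32 codons (96 bases, stop codon left out) of the transcript with the longest coding sequence in GENCODE M21. The capitals mark the 7 codons of the conserved stretch beside the membrane and the final 4 codons, which encode the residues that dock PDZ-domain proteins.
Sdc1: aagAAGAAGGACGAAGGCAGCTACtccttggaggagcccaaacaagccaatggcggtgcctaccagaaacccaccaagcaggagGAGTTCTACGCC
Sdc2: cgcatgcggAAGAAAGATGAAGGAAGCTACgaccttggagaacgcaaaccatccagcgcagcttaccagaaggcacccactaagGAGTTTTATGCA
Sdc3: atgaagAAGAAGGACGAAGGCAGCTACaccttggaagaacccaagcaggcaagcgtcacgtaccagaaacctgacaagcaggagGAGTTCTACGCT
Sdc4: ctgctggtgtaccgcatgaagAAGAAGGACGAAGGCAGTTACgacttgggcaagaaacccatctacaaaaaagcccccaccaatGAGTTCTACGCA
Of the 33 bases in capitals, Sdc4 shares 31 with Sdc1 and with Sdc3 and 27 with Sdc2, and Sdc1 shares 32 with Sdc3. The lower-case run between the capitals is the variable region, in which members bind different partners. It is 14 codons long in Sdc4, against 20 in Sdc1, 18 in Sdc2 and 19 in Sdc3. The whole coding sequences run from 198 codons in Sdc4 to 442 in Sdc3 among the syndecans, and from 557 in Gpc1 and Gpc4 to 579 in Gpc3 among the glypicans. Codon pairs for serine followed by glycine, the pair to which such chains are attached, number 5, 3, 8 and 3 in Sdc1 to Sdc4 and 6, 2, 4 and 5 in Gpc1, Gpc3, Gpc4 and Gpc6.

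In GRCm38 coordinates (the same assembly as mm10), Sdc4 lies on the minus strand of chromosome 2 (164424247 to 164443887) and Gpc1 on the plus strand of chromosome 1 (92831645 to 92860779). Sdc1 is on chromosome 12 (8771323 to 8793715), Sdc2 on 15 (32920723 to 33034935), Sdc3 on 4 (130792537 to 130826319) and Gpc6 on 14 (116925315 to 117976544). Gpc4 (52053021 to 52165252) and Gpc3 (52272426 to 52613950) are neighbours on the minus strand of the X chromosome, 107173 bases apart with no protein-coding gene between them. The exons of Sdc1, Sdc2, Sdc4, Gpc3, Gpc4 and Gpc6 share no base with another annotated gene. Of the exonic bases of Gpc1, 18.9% overlap Ankmy1 on the opposite strand, and 7.73% of those of Sdc3 overlap Gm12970 and Gm26716, also on the opposite strand. The library kit does not mark strand, so reads in those parts cannot be assigned to either gene.

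The labels and the cells were checked first. Ptges, the gene of mPGES-1, was at 19.2 to 31.9 CPM (read counts scaled to a common library size) under the WT label and at 129 to 186 CPM under the mPGES-1 KO label, a log2 fold change of 2.51 ± 0.31 with an adjusted p of 0.0171 (edgeR). This goes against a loss of the whole transcript, and counts per gene cannot show a partial deletion, so every direction below rests on the labels alone. Where 3 values of a group are listed, they are replicates 1, 2 and 3 in that order. Of 12 fibroblast markers 11 were tested (0 called higher, 1 lower), with summed levels of 9138 to 27202 CPM under the WT label and 6333 to 17737 CPM under the mPGES-1 KO label. The 1 called was Thy1 (log2 fold change -3.22, adjusted p = 0.0184 in edgeR), which DESeq2 and limma-voom also called lower. Of the 11, 4 had a positive log2 fold change and 7 a negative one. The 12 luminal epithelial markers summed to 12699 to 19157 and 42179 to 56015 CPM (5 called higher, 0 lower), and the 10 pericyte markers to 3028 to 7430 and 174 to 325 CPM (0 higher, 8 lower). Endothelial markers summed to 23.6 to 92.9 and 12.9 to 99.0 CPM, and basal or myoepithelial ones to 47.6 to 139 and 101.0 to 229 CPM. Leukocyte markers summed to 184 to 537 and 269 to 1117 CPM, and Schwann cell markers to 69.2 to 93.6 and 138 to 189.9 CPM, the last of these with no overlap. In these 4 lists, in that order, the edgeR fit called 0 genes, with 2, 0, 1 and 1 at an unadjusted p under 0.05, and DESeq2 called 2, 0, 1 and 1 and limma-voom 1, 0, 0 and 1. Over all 16543 genes tested, 3157 were at an unadjusted p under 0.05 in edgeR, and DESeq2 called 2108 and limma-voom 1965. Among defining markers, Col1a1 of fibroblasts was at 1324 to 6820 and 425 to 1211 CPM, groups that did not overlap, with an adjusted p of 0.1003 in edgeR, 0.00103 in DESeq2 and 0.0147 in limma-voom. Ptprc of leukocytes was at 3.65 to 8.32 and 15.9 to 59.8 CPM, also with no overlap, with an adjusted p of 0.109 in edgeR, 0.00529 in DESeq2 and 0.0663 in limma-voom. Krt14 of basal cells (33.0 to 96.1 and 55.6 to 161 CPM) and Pecam1 of endothelium (0.296 to 6.77 and 3.69 to 17.7 CPM) overlapped. Of the 8 endothelial genes tested, 5 had a positive log2 fold change and 3 a negative one. Those called in DESeq2 were Tie1 (adjusted p = 0.00596) and Emcn (0.00254), both lower, and limma-voom called Tie1 lower (0.0294). Cdh5, Tie1, Cd79a and Krt16 had at least 1 library at 0. Total counts were 23013498 to 43648450 per library. In such bulk RNA, fewer cells of a type and less RNA per cell cannot be told apart.

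Between the genotypes, Sdc4 rose and Gpc1 fell under the mPGES-1 KO label, and the other 6 members did not pass. Of the 16543 genes tested, 2.76% were called at an adjusted p under 0.05 (edgeR's quasi-likelihood test), 1.2% higher and 1.56% lower, and 2 of the 8 members were called, 1 in each direction. All 8 passed the filter on low counts. In CPM, the 3 libraries of a group lay wholly on 1 side of the other group in 5 of the 8 members (Sdc1, Sdc3, Sdc4, Gpc1 and Gpc4) and in 27.9% of all tested genes. Scaled per length, as given below, Sdc1 and Gpc4 overlapped. The log2 fold change was positive in 3 members and negative in 5, with a median of -0.51 over the members and -0.04 over all tested genes. As the members were picked with this contrast known, nothing is read from these shares.

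**Figure D1:**
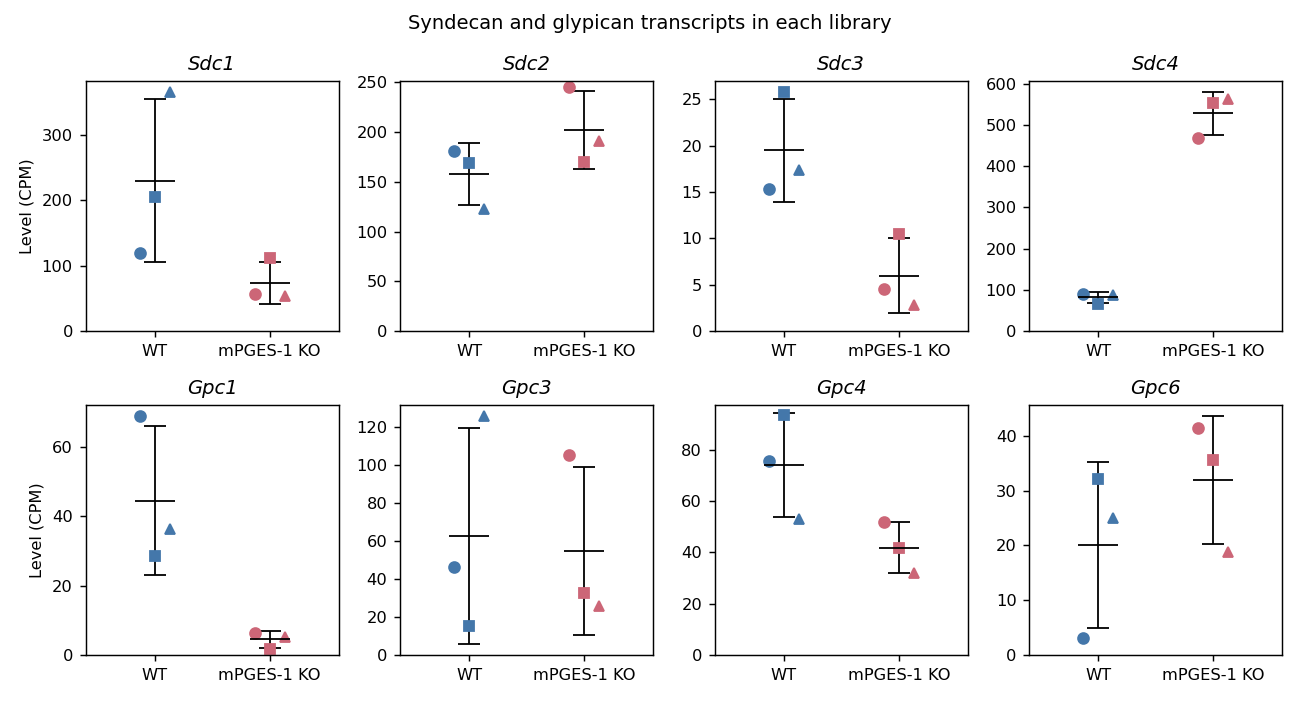
Level of each syndecan and glypican transcript in CPM (vertical axis, from 0, its scale set per gene) under the WT label (blue) and mPGES-1 KO (red). Circles, squares and triangles are replicates 1, 2 and 3, and bars give the mean and SD of 3 libraries. Sdc4 lies between 66.7 and 89.5 CPM in WT and between 469 and 564 CPM in mPGES-1 KO, and Gpc1 falls from 28.4 to 68.7 CPM to 1.84 to 6.33 CPM.

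Sdc4, the focal adhesion syndecan, had the smallest standard error of the 8 members. It stood at 89.5, 66.7 and 88.9 CPM under the WT label and at 469, 553 and 564 CPM under the mPGES-1 KO label. All of the second group lay more than 5-fold above the highest of the first. Mean levels of 81.7 ± 12.95 and 528 ± 52.0 CPM (SD, n = 3 each) gave a 6.47-fold rise with a log2 fold change of 2.69 ± 0.26 (SE) and an adjusted p of 0.0143 (edgeR). Across 13 alternatives its log2 fold change ranged from 2.62 to 2.83. Leaving out WT replicate 2 (adjusted p = 0.0554), mPGES-1 KO replicate 2 (0.0881) or mPGES-1 KO replicate 3 (0.0630) ended the call, in fits where edgeR called 1, 0 and 0 genes of the whole table (2352, 2574 and 2975 at an unadjusted p under 0.05).

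The libraries labelled mPGES-1 KO held more Sdc4 and also more luminal epithelial RNA than those labelled WT. Within the mPGES-1 KO label the order differed, as replicate 1 was lowest in Sdc4 (469 CPM) and highest in the luminal sum (56015 CPM). WT replicate 2 was the lowest of its group in both (66.7 and 12699 CPM). Epcam, an epithelial adhesion molecule, was at 338 to 633 CPM under the WT label and at 3743 to 4899 CPM under the mPGES-1 KO label, 9.18-fold between the means. Krt8, a keratin of simple epithelia, was at 438 to 589 and 2268 to 3482 CPM, 5.59-fold between the means. The ratio of Sdc4 to Krt8 was 0.204, 0.148 and 0.151 under the WT label and 0.135, 0.220 and 0.249 under the mPGES-1 KO label, so the ratios of the groups overlapped. The ratio of Sdc4 to Epcam was 0.141, 0.197 and 0.185 against 0.10002, 0.113 and 0.151, which also overlapped. The parts of luminal RNA, and of the leukocyte and Schwann cell markers given above, in the Sdc4 difference were not tested.

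The start region of Sdc4 is shown because Sdc4 is the member that rose. The window holds the 250 bases before the RefSeq start of the gene on GRCm38.p6, chr2:164443189-164443438 on the minus strand, written 5′ to 3′, and contains no annotated exon of Sdc4. In GENCODE M21 the gene reaches further upstream, to 164443887, so the window is intronic in a longer gene model. The capitals mark letters that match the GC box GGGCGG or the NF-kB consensus on either strand.
Sdc4: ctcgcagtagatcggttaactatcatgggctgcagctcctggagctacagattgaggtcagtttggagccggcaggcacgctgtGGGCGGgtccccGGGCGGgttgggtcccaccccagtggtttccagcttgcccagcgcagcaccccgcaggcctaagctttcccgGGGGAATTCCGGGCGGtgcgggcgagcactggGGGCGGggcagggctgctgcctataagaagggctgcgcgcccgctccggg
GGGCGG occurs 4 times in it, 166, 154, 72 and 50 bases before the start, and 32.7% of 32841 promoter windows of this length hold that motif. The NF-kB consensus matches once, as GGGGAATTCC, 82 bases before the start, where the next GC box follows without a gap, and 3.9% of windows hold a match. Its form was settled after the window had been read. The CRE letters TGACGTCA (in 1.55% of windows), the AP-1 letters TGANTCA (6.75%), the E-box CACGTG (6.02%) and the TATA letters TATAAA (12.4%) were not found in this window. Of the 8 members, 5 had a promoter entry, and Gpc1, Gpc6 and Sdc2 had none. All 5 windows held GGGCGG on 1 strand or the other. Beside the 4 matches in Sdc4 there were 3 each in Sdc1, Sdc3 and Gpc3, and 1 in Gpc4. These matches describe letters and not binding.

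Sdc1, the syndecan best known from epithelium and tumour stroma, was lower under the mPGES-1 KO label without passing the test. Its level was 119.7, 204 and 365.5 CPM under the WT label and 56.3, 111 and 54.1 CPM under the mPGES-1 KO label. The groups did not overlap in CPM, though WT replicate 1 and mPGES-1 KO replicate 2 were nearly level. The WT libraries spread from 119.7 to 365.5 CPM. The log2 fold change was -1.64 ± 0.48 (SE) with an adjusted p of 0.115 in edgeR. DESeq2 (adjusted p = 0.0143) and limma-voom with quality weights (0.0419) called it lower. Those tools also called 2108 and 1965 genes of the whole table, against 456 in edgeR.

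Sdc3, a syndecan with the longest extracellular part of the family, was per length the least abundant syndecan in every library. It was at 15.3, 25.8 and 17.4 CPM under the WT label and at 4.57, 10.5 and 2.80 CPM under the mPGES-1 KO label, groups that did not overlap. Its log2 fold change was -1.71 ± 0.65 (adjusted p = 0.203). Sdc2, the syndecan typical of mesenchymal cells, was at 181, 169 and 123 CPM and at 245, 170.0 and 191 CPM in the same order. These ranges overlapped, and the log2 fold change of 0.36 ± 0.27 did not pass (adjusted p = 0.547).

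**Figure D2:**
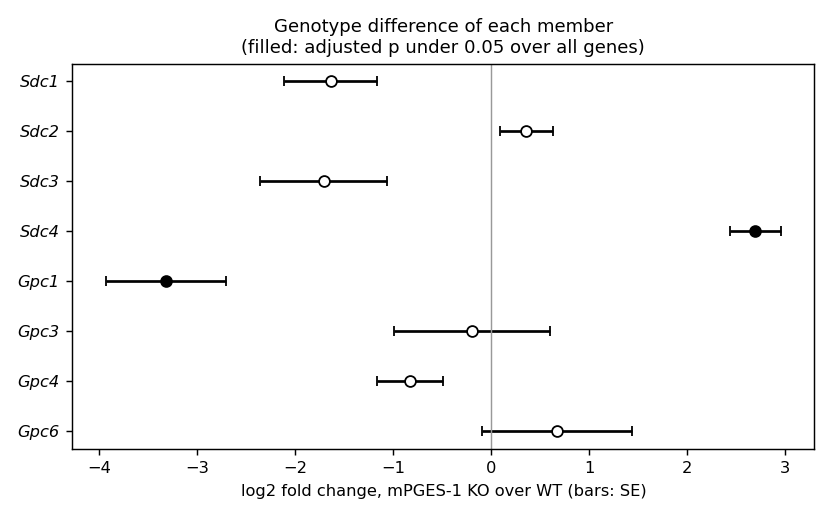
log2 fold change of each member, mPGES-1 KO over WT (horizontal axis), with the standard error of edgeR's fit as bars. Filled points, Sdc4 at 2.69 and Gpc1 at -3.31, have an adjusted p under 0.05 over all genes tested, and the 6 open points do not.

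Gpc1, a glypican that binds heparin-binding growth factors such as FGF2, had the largest log2 fold change in size of the 8 members. It was at 68.7, 28.4 and 36.3 CPM under the WT label and at 6.33, 1.84 and 5.21 CPM under the mPGES-1 KO label. The lowest WT library was more than 4-fold above the highest mPGES-1 KO library, in which 173 reads were counted. From a mean of 44.5 ± 21.4 CPM to 4.46 ± 2.33 CPM (SD, n = 3 each), Gpc1 fell by 3.31 ± 0.61 (SE) on the log2 scale with an adjusted p of 0.0379 (edgeR). The call was lost in each of 6 fits that left out 1 library, with an adjusted p of 0.0633 (without WT replicate 1), 0.114 (WT replicate 2), 0.0839 (WT replicate 3), 0.0763 (mPGES-1 KO replicate 1), 0.116 (mPGES-1 KO replicate 2) and 0.112 (mPGES-1 KO replicate 3). The log2 fold change stayed between -3.64 and -2.83.

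The libraries labelled mPGES-1 KO held less Gpc1 and also less pericyte RNA than those labelled WT. Within the WT label the order differed, as replicate 2 was lowest in Gpc1 (28.4 CPM) and highest in the pericyte sum (7430 CPM). Replicate 2 of mPGES-1 KO was the lowest of its group in both (1.84 and 174 CPM). Rgs5, a pericyte marker, was at 858 to 2291 CPM under the WT label and 49.9 to 119.6 CPM under the mPGES-1 KO label, 17.8-fold between the means, and the median log2 fold change of the 10 pericyte markers was -4.43. The ratio of Gpc1 to Rgs5 was 0.0300, 0.0188 and 0.0423 against 0.0529, 0.0370 and 0.0562, which overlapped. Pdgfrb, the PDGF receptor of mural cells and fibroblasts, was at 433 to 886 and 24.3 to 98.8 CPM, 10.4-fold between the means beside 9.97-fold for Gpc1. The ratio of Gpc1 to Pdgfrb was 0.145, 0.0320 and 0.0838 under the WT label and 0.0640, 0.0759 and 0.107 under the mPGES-1 KO label, which overlapped. Thy1, the fibroblast marker called lower, differed 9.29-fold between the means. The ratio of Gpc1 to Thy1 was 0.423, 0.138 and 0.134 under the WT label. Under the mPGES-1 KO label it was 0.177, 0.144 and 0.258, so the groups overlapped. The parts of pericyte RNA, and of the lower Thy1 and Col1a1, in the Gpc1 difference were not tested.

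**Figure D3:**
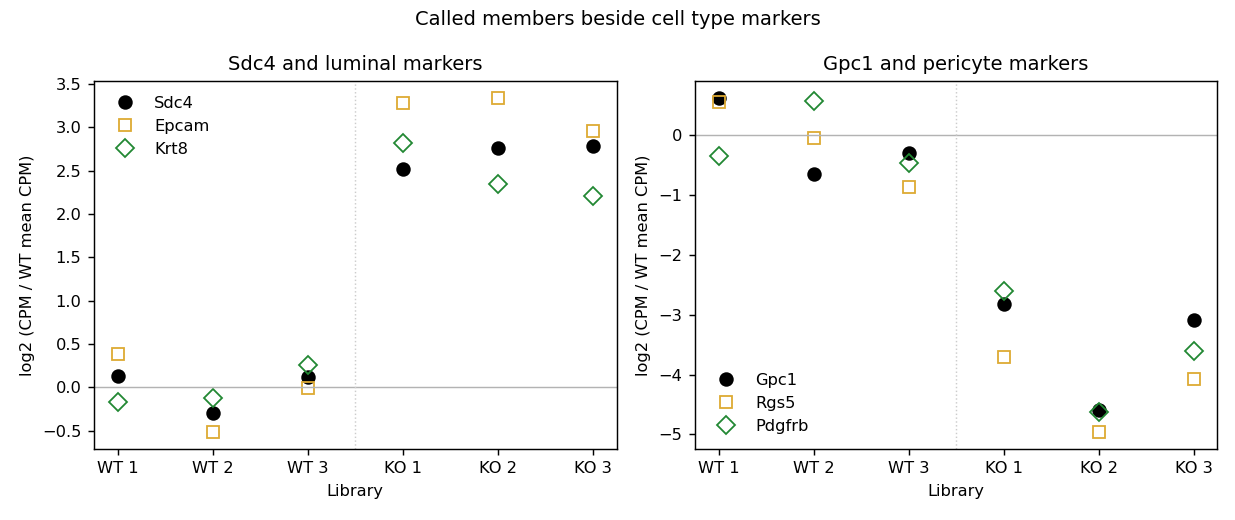
Level in each library (horizontal axis) as log2 of CPM over the mean of the libraries labelled WT (vertical axis), for Sdc4 with the luminal markers Epcam and Krt8 (left) and Gpc1 with the pericyte markers Rgs5 and Pdgfrb (right). Filled circles are the proteoglycans and open symbols the markers, and in every panel the 3 mPGES-1 KO libraries (KO 1 to KO 3) lie apart from the 3 WT libraries in the direction shared by the markers.

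Gpc4, a glypican of the pair on the X chromosome, was at 75.8, 93.7 and 53.2 CPM under the WT label and at 51.8, 41.9 and 31.9 CPM under the mPGES-1 KO label. The groups were apart by little in CPM, and the log2 fold change of -0.83 ± 0.33 did not pass (adjusted p = 0.231 in edgeR). Its neighbour Gpc3 was at 46.3, 15.3 and 125.6 CPM and at 105.3, 32.3 and 25.7 CPM. The libraries of each genotype overlapped widely, with WT replicate 3 and mPGES-1 KO replicate 1 high. The log2 fold change of Gpc3 was -0.20 ± 0.80 (adjusted p = 0.931) and turned positive when WT replicate 3 (0.82), mPGES-1 KO replicate 2 (0.12) or mPGES-1 KO replicate 3 (0.15) was left out. Pdgfra, a fibroblast receptor, had its highest levels in the same libraries, at 163 CPM in WT replicate 3 and 151 CPM in mPGES-1 KO replicate 1, and 28.4 to 88.9 CPM in the others. Gpc6, a glypican linked to skeletal growth, was at 3.10, 32.1 and 25.0 CPM under the WT label and at 41.4, 35.5 and 18.8 CPM under the mPGES-1 KO label. WT replicate 1 was the low library, and the log2 fold change of 0.67 ± 0.76 (adjusted p = 0.709) was 0.19 when that library was left out.

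Levels of different genes were compared per length, as TPM, the reads per exonic base scaled to the same sum in each library. In the libraries labelled WT the order of the mean was Sdc1 (151 ± 69.8 TPM), Sdc2 (117 ± 30.9), Sdc4 (82.2 ± 10.9), Gpc4 (73.3 ± 25.3), Gpc3 (56.7 ± 47.4), Gpc1 (22.3 ± 11.4), Sdc3 (8.45 ± 2.90) and Gpc6 (8.01 ± 6.28; SD, n = 3). Neighbours in this order overlapped within 1 SD in all 7 pairs. In the libraries labelled mPGES-1 KO Sdc4 came first at 561 ± 76.2 TPM, followed by Sdc2 (155 ± 29.7), Gpc3 (55.0 ± 44.6), Sdc1 (53.8 ± 28.7), Gpc4 (43.1 ± 12.2), Gpc6 (13.7 ± 5.69), Sdc3 (2.81 ± 2.14) and Gpc1 (2.28 ± 1.14). There, 4 of 7 neighbouring pairs were apart by more than 1 SD of each: Sdc4 from Sdc2, Sdc2 from Gpc3, Gpc4 from Gpc6 and Gpc6 from Sdc3. The place of Gpc6 depends on the length used. With the length of the longest coding transcript its mean was 21.2 ± 16.6 TPM under the WT label, above Sdc3 (10.2 ± 3.49), and 36.3 ± 15.1 TPM under the mPGES-1 KO label, where it overlapped Gpc4 (43.1 ± 12.2) within 1 SD and 3 of 7 pairs were apart. Among 17664 genes ranked per length, Sdc4 held rank 1764, 2152 and 1687 under the WT label and rank 273, 208 and 274 under the mPGES-1 KO label. On this scale the groups overlapped in Sdc1 and Gpc4, which were apart in CPM. Sdc1 was at 83.8 TPM in WT replicate 1 and 86.9 TPM in mPGES-1 KO replicate 2. Gpc4 was at 46.7 TPM in WT replicate 3 and at 52.9 and 47.0 TPM in mPGES-1 KO replicates 1 and 2.

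The make-up of the syndecan RNA shifted with these levels. Sdc4 took 29.1%, 19.8% and 20.7% of the summed syndecan RNA per length under the WT label and 68.4%, 73.3% and 76.3% under the mPGES-1 KO label. Sdc1 took 26.1%, 40.6% and 56.9% against 5.49%, 9.86% and 4.89%. The ratio of Sdc4 to Sdc1 per length was 1.12, 0.489 and 0.364 under the WT label and 12.5, 7.44 and 15.6 under the mPGES-1 KO label, so the 2 were near level in WT replicate 1, Sdc1 led in WT replicates 2 and 3, and Sdc4 led in all 3 others. Sdc2 held 20.7 to 42.7% and 16.3 to 25.8%, and Sdc3 at most 3.26% in any library. The syndecan sum was 321 to 392 TPM under the WT label and 708 to 881 TPM under the mPGES-1 KO label.

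The glypican RNA was mostly Gpc3 and Gpc4 in every library, in uneven parts. Gpc4 took 48.0%, 68.6% and 25.8% of it under the WT label and 29.4%, 46.9% and 47.1% under the mPGES-1 KO label, and Gpc3 took 28.9%, 11.03% and 60.1% against 59.0%, 35.7% and 37.4%. Gpc1 took 22.4%, 10.7% and 9.06% against 1.85%, 1.06% and 3.96%. The glypican sum was 141 to 181 TPM against 62.3 to 179.7 TPM, ranges that overlapped. These shares come from the same contrast and carry no test.

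**Figure D4:**
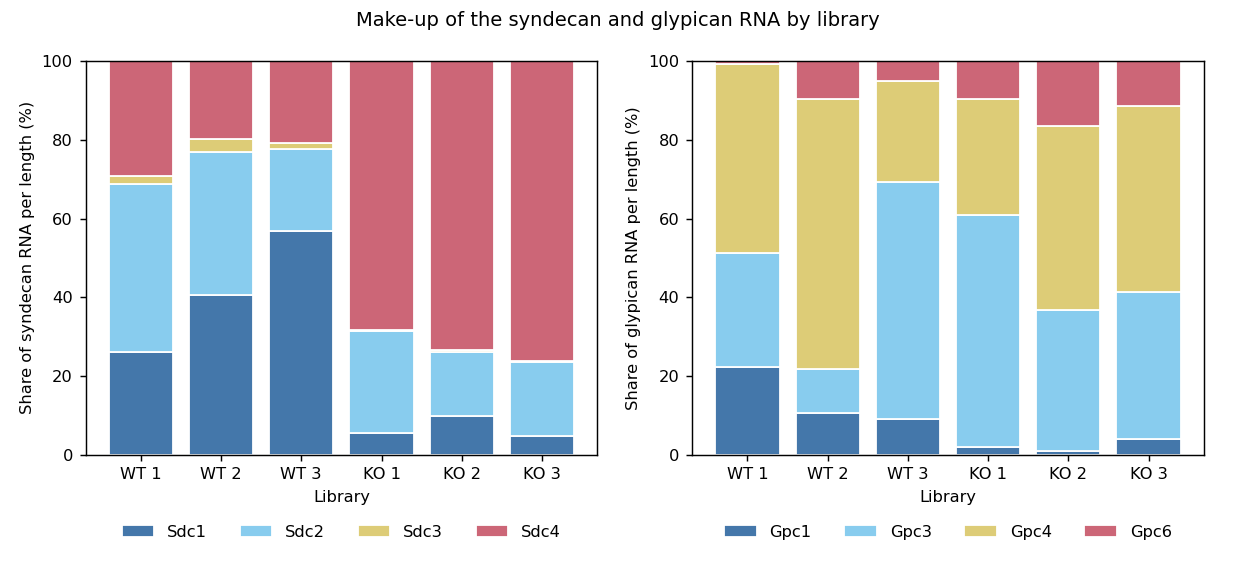
Share of each member in the summed syndecan RNA (left) and glypican RNA (right) per length, in percent (vertical axis), in each library (WT 1 to 3 and mPGES-1 KO, written KO 1 to 3). Sdc4 takes 19.8 to 29.1% of the syndecan RNA in WT and 68.4 to 76.3% in mPGES-1 KO, and Gpc1 takes 9.06 to 22.4% and 1.06 to 3.96% of the glypican RNA.

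The genes whose profiles over the 6 libraries were most like a member's were found by the root mean square difference of log2(CPM + 1) after each profile was centred on its mean, among 10920 genes. For Sdc4 these were Palmd (0.194), Sox9 (0.211), a transcription factor of glandular epithelium and cartilage, and Rel (0.240), an NF-kB subunit. For Sdc1 they were Fam20c (0.236), Mlycd (0.241) and Fes (0.271), and for Sdc3 Sox4 (0.133), Ptpa (0.182) and Rnf220 (0.213). For Sdc2, which varied little, they were Fnbp1 (0.0745), Atp11b (0.0922) and Ubr4 (0.108). For Gpc1 they were Sema6d (0.382), Cpne2 (0.404) and Hlx (0.420), and for Gpc4 Smtn (0.120), a smooth muscle cytoskeletal protein, Mdfic (0.139) and Cdkn2c (0.154). For Gpc3 they were Slit2 (0.252), Abca8a (0.262) and Hc (0.301), and for Gpc6 Usp42 (0.206), Ccsap (0.223) and Hook2 (0.231). These distances rest on 6 libraries and carry no test.

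Of 12 genes that start and extend the heparan sulphate chain, edgeR called 0 in either direction, where 2.76% of all tested genes were called, and 3 had a positive and 9 a negative log2 fold change, with a median of -0.88. At an unadjusted p under 0.05 there were 5, and DESeq2 called 2 and limma-voom 1, all lower. Over all 16543 tested genes, in both directions, these numbers were 3157, 2108 and 1965. The same 3 numbers stand beside the counts of every list below. Ext2, a subunit of the chain polymerase, was at 133 ± 23.5 CPM under the WT label and 74.2 ± 12.4 CPM under the mPGES-1 KO label (adjusted p = 0.132). Xylt1, which adds the first xylose, was at 25.8 ± 20.3 and 5.31 ± 2.56 CPM (0.133), and B3gat3, which completes the linker, at 86.2 ± 27.9 and 42.1 ± 11.5 CPM (0.168). Of 20 genes that sulphate or trim the chain 16 were tested, and edgeR called 1 lower and 0 higher, with a median of 0.03 and 3 at an unadjusted p under 0.05. DESeq2 called 1 higher and 1 lower, and limma-voom 1 higher and 2 lower. The gene called in edgeR was Ndst3, an N-deacetylase and N-sulphotransferase. It was at 17.1, 19.8 and 8.43 CPM (753, 788 and 307 reads) under the WT label. Under the mPGES-1 KO label it was at 0.293, 0 and 0.255 CPM (8, 0 and 9 reads), a log2 fold change of -6.32 ± 1.29. Its adjusted p was 0.0487 in edgeR, and the call was lost with RLE size factors, with no filter and in all 6 fits without 1 library (adjusted p from 0.0692 to 0.202). Sulf2, which removes 6-O-sulphates outside the cell, was at 56.0 ± 4.75 and 109 ± 18.9 CPM, with an adjusted p of 0.0932 in edgeR, 0.0145 in DESeq2 and 0.0276 in limma-voom. Hs3st3a1 was without a read under the mPGES-1 KO label and at 0.679 ± 0.379 CPM under the WT label, so it was at least 6.36-fold lower when each empty library is set at 3 counts (adjusted p = 0.109 in edgeR and 0.0469 in limma-voom), and 32.9% of its exonic bases overlap an opposite-strand gene. All 10 genes that supply sulphate and sugar donors were tested, and edgeR, DESeq2 and limma-voom called 0 (median 0.23; 1 at an unadjusted p under 0.05), with Ugdh, Impad1 and Ugp2 nearest the threshold (adjusted p = 0.221, 0.594 and 0.607).

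Of 12 other core proteins that carry heparan sulphate always or at times, 8 were tested, and edgeR called 1 lower and 0 higher (median -0.26; 2 at an unadjusted p under 0.05), DESeq2 1 lower and limma-voom 2 lower. Col18a1, a basement membrane collagen with heparan sulphate chains, was at 295, 474 and 269 CPM under the WT label and at 48.2, 29.0 and 16.2 CPM under the mPGES-1 KO label (log2 fold change -3.47 ± 0.47, adjusted p = 0.0179). Without WT replicate 2 or mPGES-1 KO replicates 2 or 3 its call was lost, with an adjusted p of at most 0.106. Agrn (60.1 ± 14.03 and 30.0 ± 8.29 CPM, adjusted p = 0.169) and Hspg2, which encodes perlecan (76.9 ± 72.8 and 20.7 ± 13.2 CPM, 0.270), did not pass.

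A list of 13 genes of core protein shedding and release also holds Timp3, which encodes an inhibitor of metalloproteases. Of the 13, 11 were tested, and edgeR called 1 lower and 0 higher (median -0.63, with 4 at an unadjusted p under 0.05). DESeq2 and limma-voom each called 2 lower and 0 higher. Mmp14, a membrane-bound protease that can cleave syndecan ectodomains, was at 514, 735 and 699.9 CPM under the WT label and at 275, 131 and 145 CPM under the mPGES-1 KO label (log2 fold change -1.82 ± 0.36, adjusted p = 0.0451). Its call was lost with RLE size factors and without WT replicates 2 or 3 or mPGES-1 KO replicates 2 or 3 (adjusted p up to 0.180). Adamts4 (adjusted p = 0.0834) and Timp3 (0.151) did not pass in edgeR. Adamts4 passed in DESeq2 (0.000719), in limma-voom (0.0174) and in edgeR without WT replicate 1 (0.0393), and 21.3% of the exonic bases of Timp3 overlap an opposite-strand gene.

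Of 12 partners of the syndecan tail, edgeR called 1 higher and 0 lower (median 0.71; 4 at an unadjusted p under 0.05), DESeq2 called 1 higher and 1 lower, and limma-voom 3 higher and 1 lower. Ezr, which encodes ezrin, a linker between membrane proteins and actin, was at 97.3, 130.03 and 61.6 CPM under the WT label and at 395, 569 and 392 CPM under the mPGES-1 KO label (log2 fold change 2.23 ± 0.35, adjusted p = 0.0272). Its call held only without WT replicate 1 among the 6 fits that left out a library (adjusted p from 0.0484 to 0.106). Gipc1, a PDZ protein, was at 224 ± 73.8 and 91.2 ± 4.04 CPM (adjusted p = 0.0637 in edgeR), and was the gene called lower in DESeq2 (0.00420) and limma-voom (0.0238). Cask, another PDZ protein, was at 24.9 ± 5.17 and 50.6 ± 19.3 CPM (adjusted p = 0.190 in edgeR). Of 7 genes that make, attach or remodel GPI anchors 0 were called in edgeR. Their median was -0.11, with 2 at an unadjusted p under 0.05. DESeq2 and limma-voom each called 1 lower. Pigt, at 52.1 ± 18.9 and 11.4 ± 8.00 CPM, was nearest the threshold (adjusted p = 0.0934 in edgeR), followed by Gpaa1 (0.199) and Pgap1 (0.535).

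Of 18 heparin-binding growth factors and receptors 15 were tested, and edgeR called 3 higher and 0 lower, where 1.2% of all genes were called higher, with a median of 1.10 and 5 at an unadjusted p under 0.05. DESeq2 called 4 higher and 1 lower, and limma-voom 4 higher and 0 lower. Hbegf, an EGF receptor ligand that binds heparan sulphate, was at 16.5, 40.8 and 56.1 CPM under the WT label and at 471, 504 and 629 CPM under the mPGES-1 KO label (log2 fold change 3.82 ± 0.48, adjusted p = 0.0171). Vegfa, an angiogenic factor, was at 32.2, 43.3 and 44.1 CPM and at 129.6, 118 and 289.9 CPM (2.17 ± 0.40, adjusted p = 0.0383). Fgfr1, a receptor that binds FGF together with heparan sulphate, was at 50.2, 67.1 and 117 CPM and at 254, 281 and 256 CPM (1.76 ± 0.35, adjusted p = 0.0451). Of these calls, that of Hbegf was lost in 3 of the 6 fits without 1 library (WT replicate 2, mPGES-1 KO replicates 2 and 3; adjusted p up to 0.0881), that of Fgfr1 in 5 (all but WT replicate 3; up to 0.177) and that of Vegfa in 6 (0.0629 to 0.136). These genes were measured in the same libraries whose luminal and pericyte sums are given above, and the part of those cells in these differences was not tested.

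**Figure D5:**
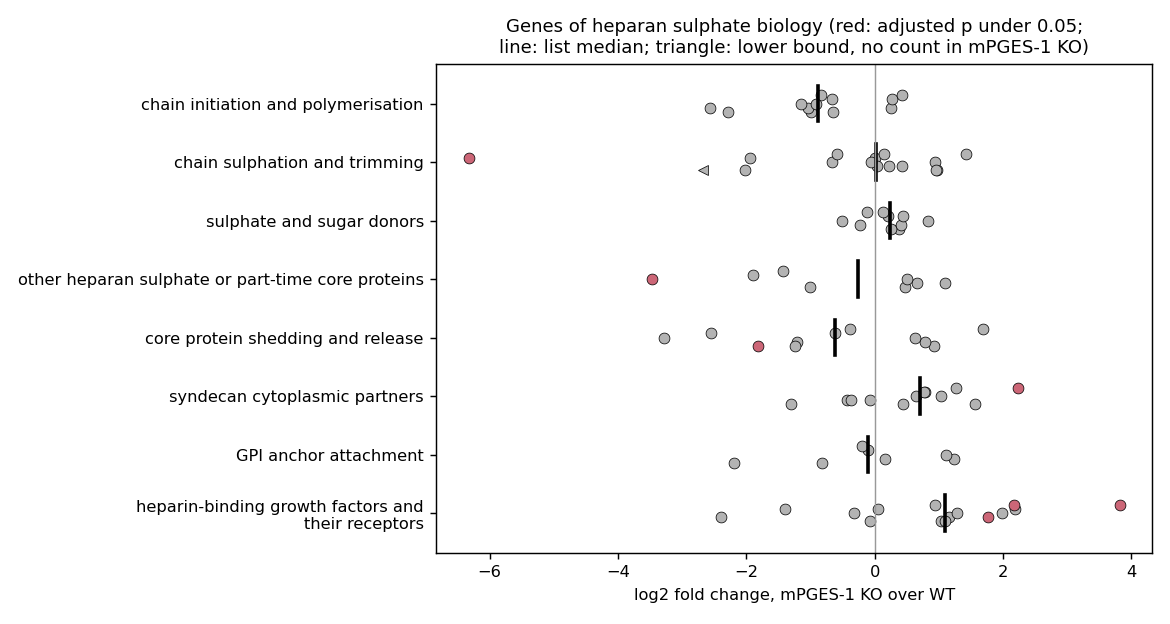
log2 fold change, mPGES-1 KO over WT (horizontal axis), of every tested gene in 8 lists of heparan sulphate biology (rows). Points are genes, red where the adjusted p over all genes is under 0.05, black lines are list medians, and the triangle is Hs3st3a1 at its bound. The medians run from -0.88 for chain initiation and polymerisation to 1.10 for heparin-binding growth factors and their receptors.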

How the data were processed

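RNA-seq was run on 6 libraries of sorted tumour fibroblasts. Per the labels' protocols, cDNA came from an ultra-low input template-switching kit with 16 PCR cycles and was sequenced as single reads of 75 cycles. The authors deposited whole-number read counts for each gene symbol, with no normalization. FastQC 0.11.5, STAR and mm10 are named, per the submitters' processing notes, while for the counting program a name is not given in the sources used here. All of the 6 columns matched 1 sample each by label. Reads carry no molecular identifiers, so the floor of 3 counts covers counting error only.

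The test was edgeR 4.0.16 under R 4.3.3 (filterByExpr, TMM, robust quasi-likelihood fit over all 6 libraries, two-sided, Benjamini-Hochberg over 16543 genes, called at 0.05). The standard error is the absolute log2 fold change over the square root of F, and CPM use TMM-scaled totals. The NF-kB consensus was set after the Sdc4 window was seen. Levels per length are counts over exon unions of GENCODE M21, scaled to an equal sum (TPM) over 17664 symbols with 1 gene model. Coding ends come from GENCODE M21 and the start region from RefSeq on GRCm38.p6. Alternatives were RLE factors, library size alone, 2 other filters, DESeq2 1.42.0, limma-voom (limma 3.58.1), the replicate number as a block, an adjusted p under 0.1 and each library left out. The transcript length alternative (for levels and shares) and the shares without 1 library were added after the data were seen. The members and lists were chosen with earlier results of these data known. Named were all members, the Ptges gene, up to 5 called genes of each list or, with under 3 called, the 3 of smallest adjusted p, set markers, and the 3 genes most like each member at a mean of at least 5 CPM.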

Additional observations from a re-analysis of the deposited data

How the results depend on the processing

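Over 13 alternatives for each gene, Sdc1, Sdc2, Sdc3, Sdc4, Gpc1, Gpc4 and Gpc6 kept the sign of their log2 fold change. Gpc3 turned positive in limma-voom (0.39), with the replicate block (0.11), and in 3 of the fits without 1 library (0.82 without WT replicate 3, 0.12 and 0.15 without mPGES-1 KO replicates 2 and 3), and ranged from -1.10 to 0.82 over all 6 such fits. Pdgfra turned negative without WT replicate 2 (-0.27) and without mPGES-1 KO replicate 1 (-0.30), with 0.78 at the other end without WT replicate 3. Over all genes edgeR called 456; DESeq2 called 2108, limma-voom 1965 and an adjusted p under 0.1 gave 1113, while fits without 1 library gave 0 to 568. The count was 0 without mPGES-1 KO replicate 2 or 3 (2574 and 2975 genes at an unadjusted p under 0.05), 1 without WT replicate 2, 150 without WT replicate 3 and 160 without mPGES-1 KO replicate 1. Members called higher were 1, with 0 to 1 without 1 library. Members called lower were 1, and 2 in DESeq2 and limma-voom, with 0 without any 1 library. The cause was not tested.

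Same-numbered libraries did not deviate together (r = -0.085, 0.031 and -0.00052 over genes), and not every library correlated best with its own number. A correlation over all genes with 3 libraries per group cannot exclude a pairing, so whether the numbers pair the libraries is not known here. With the replicate number as a block 0 genes were called in the whole table (2716 at an unadjusted p under 0.05), 0 members higher and 0 lower.

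With the length of the longest coding transcript the share of Gpc6 in the glypican RNA moved from 5.17% to 11.3% in the libraries labelled WT and from 12.5% to 25.3% in those labelled mPGES-1 KO. The shares of the other 7 members moved by less than 1 SD. In the order of levels per length Gpc6 then passed Sdc3 under the WT label, and the pairs of neighbours apart by 1 SD went from 4 to 3 of 7 under the mPGES-1 KO label. For the spread between libraries edgeR estimated a common biological coefficient of variation of 0.818.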
